A study of Mus musculus with 12 samples.

Results

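The genes described here are 8 genes that mark B cells, Ms4a1, Cd79a, Cd79b, Pax5, Cd22, Fcer2a, Bank1 and Cr2, measured by bulk RNA-seq in Pdgfra+ cells sorted from mouse lung. They were taken by name from the deposited tables of 40760 genes, each name had 1 row, and all 8 passed edgeR's filter on low counts, which kept 17418 genes. Pdgfra, also called CD140a, is the receptor by which lung fibroblasts were sorted. The 12 libraries were labelled as 4 groups of 3, all from male mice. WT vehicle and WT bleo are wild type mice given vehicle or bleomycin (bleo), a drug that injures and scars the lung, and Pear1-/- vehicle and Pear1-/- bleo are mice labelled as lacking Pear1, a membrane receptor that the study examined in fibroblasts, given the same 2 treatments. In the study's methods the deletion is a knockout-first allele, a cassette inserted in an intron that is meant to end the transcript early, with no cell type named to which it is limited. The methods give young adult mice for all experiments unless stated otherwise. The study used more than 1 bleo dose, and the labels give neither the dose of the sorted mice nor the number of mice behind a library.

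B cells carry an antigen receptor made of an immunoglobulin and the signalling pair CD79A and CD79B, and the transcription factor PAX5 holds them in the B lineage. CD22 dampens that receptor, the complement receptor CR2 (CD21) strengthens it, and BANK1 is an adaptor inside the cell that links it to kinases. CD20, made from Ms4a1, is found on B cells from the late precursor stage on and is lost in plasma cells, whereas CD23, made from Fcer2a, is typical of mature follicular B cells, and in the lung such cells occur scattered and in lymphoid aggregates near airways and vessels.

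Before the values, 3 features of the libraries are given, since the comparisons rest on them. The total counted reads were between 6702948 and 10447101 a library, so that a floor of 3 counts lay between 0.287 and 0.448 CPM (counts scaled to the total of the library), for counting error only. Every count of the 8 genes was between 91 and 3050. The counts of Pear1 itself did not tell the genotypes apart: they differed by -0.08 on the log2 scale between the vehicle groups (edgeR's adjusted p = 0.49, and -0.0078 without WT vehicle replicate 2, which is described next), and were 0.48 higher in libraries labelled Pear1-/- bleo than in those of WT bleo (adjusted p = 7.54e-05), so genotypes are given as labelled. A count over the whole gene can include exons outside the trap. The library labelled WT vehicle replicate 2 stood apart from its group. Its chi-square of counts per degree of freedom was 21.2 and 21.8 against the other WT vehicle libraries, which had 1.58 between them, and was between 1.73 and 2.67 against the 3 libraries labelled Pear1-/- vehicle. The labels were kept, and the tests of the 8 genes that rest on WT vehicle are given with and without this library. Between the libraries of each bleo group the same chi-square was between 1.35 and 1.49, little above counting error. The labels do not say whether that spread holds differences between mice, so small p-values between these groups may measure technical spread. For a sort by Pdgfra, leukocyte transcripts were plentiful: Ptprc, the gene of the leukocyte antigen CD45, had between 3010 and 3855 normalized counts in WT vehicle, between 3520 and 4016 in Pear1-/- vehicle, between 7542 and 7727 in WT bleo and between 3241 and 3448 in Pear1-/- bleo. In bulk samples fewer cells of a type and less RNA per cell cannot be told apart.

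In the mouse genome GRCm38 (GENCODE M21), Cr2 (ENSMUSG00000026616) lies at chr1:195136811-195176716, Bank1 (ENSMUSG00000037922) at chr3:136053363-136326066, Pax5 (ENSMUSG00000014030) at chr4:44524757-44710487 and Fcer2a (ENSMUSG00000005540) at chr8:3681737-3694175. Cd79a (ENSMUSG00000003379) and Cd22 (ENSMUSG00000030577) are both on chr7, at 24897381-24902197 and 30865402-30880342. Cd79b (ENSMUSG00000040592) is at chr11:106311341-106314762 and Ms4a1 (ENSMUSG00000024673) at chr19:11249675-11266241. Cd79a is on the plus strand and the other 7 on the minus strand. The exons of Pax5 share 125 and 636 bases with the opposite-strand genes Gm12462 and 5730488B01Rik, and those of Cd22 share 479 bases with the antisense gene Gm29439. The counting is not stated to use strand, so reads within those shared bases, out of 8853 exonic bases of Pax5 and 5042 of Cd22, cannot be told apart from reads of the opposite-strand genes.

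RefSeq start windows (GRCm38.p6) were at hand for 6 of the 8 genes, and not for Ms4a1 and Cd79b. The 250 bases before the start are printed 5′ to 3′ for the 4 genes that were called lower in the comparison of the bleo groups below, chosen with that result known, so that the sequences of genes that moved together can be compared. Capitals mark a match to the core CCCNNGGG, to which the early B cell factor EBF1 is known to bind, searched on both strands together with the octamer ATGCAAAT, known as the site of POU factors such as OCT2, with no overlap between matches.
Fcer2a, chr8:3694175-3694424, minus strand: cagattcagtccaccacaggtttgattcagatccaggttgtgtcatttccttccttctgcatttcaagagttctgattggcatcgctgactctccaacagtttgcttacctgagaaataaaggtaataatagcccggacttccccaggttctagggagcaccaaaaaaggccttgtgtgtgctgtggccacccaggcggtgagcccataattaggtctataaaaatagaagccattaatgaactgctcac
Cr2, chr1:195176720-195176969, minus strand: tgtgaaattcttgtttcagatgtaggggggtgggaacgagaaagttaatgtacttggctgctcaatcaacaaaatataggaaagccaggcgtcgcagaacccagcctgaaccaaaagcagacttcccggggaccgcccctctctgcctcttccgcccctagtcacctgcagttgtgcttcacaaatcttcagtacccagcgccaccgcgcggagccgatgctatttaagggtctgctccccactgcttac
Pax5, chr4:44710695-44710944, minus strand: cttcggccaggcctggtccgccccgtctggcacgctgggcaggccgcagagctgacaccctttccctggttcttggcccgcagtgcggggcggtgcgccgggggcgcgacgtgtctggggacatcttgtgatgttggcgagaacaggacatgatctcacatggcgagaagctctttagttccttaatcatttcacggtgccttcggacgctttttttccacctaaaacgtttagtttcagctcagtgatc
Bank1, chr3:136326067-136326316, minus strand: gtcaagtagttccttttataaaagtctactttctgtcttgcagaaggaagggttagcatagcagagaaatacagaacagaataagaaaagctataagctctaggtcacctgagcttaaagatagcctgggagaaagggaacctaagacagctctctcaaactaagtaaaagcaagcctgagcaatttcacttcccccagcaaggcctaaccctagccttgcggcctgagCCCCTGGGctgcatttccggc
Of these 4 windows only that of Bank1 held the EBF core, from 21 to 14 bases before the start, and none held the octamer. Of the other windows at hand, Cd22 had the core from 48 to 41 bases before its RefSeq start, while Cd79a and the remaining 2 starts of Fcer2a had neither motif. Over all 32851 mouse windows of 250 bases the core was found in 11.8% and the octamer in 1.6%. The printed windows differed in base composition, with a GC content of 46.0% for Fcer2a, 53.6% for Cr2, 58.8% for Pax5 and 46.4% for Bank1 against a median of 52.4% over all windows, and Pax5 held 19 CG dinucleotides where the median window held 6. Such matches are letters in a window and not measured binding.

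Per length of exon the antigen receptor pair stood far above the other genes. In CPM per kilobase of exon, Cd79a had 158 ± 51.4 (SD, n = 3) and Cd79b 67.7 ± 14.6 in WT vehicle, and the next were Fcer2a with 11.5 ± 1.32 and Ms4a1 with 11.4 ± 2.69, which did not differ beyond their spread. Bank1 and Cd22 followed with 7.25 ± 1.12 and 7.24 ± 0.90, and Cr2 and Pax5 with 2.15 ± 0.60 and 2.08 ± 0.087, and neither pair differed beyond its spread. In WT bleo the libraries separated 2 of these pairs, with Fcer2a (24.6 ± 0.18) above Ms4a1 (20.0 ± 1.44) and Cr2 (4.40 ± 0.011) above Pax5 (2.58 ± 0.29). Among libraries labelled Pear1-/- bleo, Fcer2a had dropped to 7.23 ± 0.31, below both Ms4a1 (15.2 ± 0.79) and Cd22 (8.82 ± 0.33). Levels from here on are normalized counts, which are the counts divided by a size factor of the library, on a linear scale.

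Cd79a, one gene of the signalling pair, is the most abundant of the 8 genes. It had 1587, 2930.5 and 1452 normalized counts in WT vehicle replicates 1 to 3 and 2830.3, 2791 and 3329 in libraries labelled Pear1-/- vehicle. After bleo it had 2385, 2415 and 2417 in WT and 2051, 2037 and 2006 in libraries labelled Pear1-/-. The bleo groups did not overlap and were each tight, whereas WT vehicle replicate 2 sat among libraries labelled Pear1-/- vehicle and far above its own group.

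Cd79b, the partner of Cd79a, had 716, 1117 and 661 normalized counts in WT vehicle and 1068, 960.2 and 1167 in libraries labelled Pear1-/- vehicle. It had 1115, 1095 and 1159 in WT bleo and 722, 725 and 718 in libraries labelled Pear1-/- bleo. WT vehicle replicates 1 and 3 were the lowest libraries, just below those labelled Pear1-/- bleo, which had the lowest mean only because of WT vehicle replicate 2, and the WT bleo libraries lay within the range of those labelled Pear1-/- vehicle.

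Cd22, the inhibitory receptor, had 291, 383 and 261 normalized counts in WT vehicle and 363, 363 and 382 in libraries labelled Pear1-/- vehicle. It had 595, 568 and 549 in WT bleo and 381, 399 and 415 in libraries labelled Pear1-/- bleo. WT bleo stood above all other libraries, and the 2 groups labelled Pear1-/- overlapped.

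Cr2, the complement receptor, had 113, 213 and 125 normalized counts in WT vehicle and 246, 211 and 184 in libraries labelled Pear1-/- vehicle. It had 317, 318 and 318 in WT bleo and 129, 138 and 109 in libraries labelled Pear1-/- bleo. WT bleo was again the highest group, and Pear1-/- bleo overlapped WT vehicle at the low end. Cr2 is also made by follicular dendritic cells, whose other markers are given below.

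Ms4a1, the gene of CD20, had 486, 832 and 505 normalized counts in WT vehicle and 893, 946 and 804 in libraries labelled Pear1-/- vehicle. It had 1093, 1187 and 1028 in WT bleo and 881, 801 and 845 in libraries labelled Pear1-/- bleo. WT bleo was above every other library, and the groups labelled Pear1-/- with and without bleo overlapped.

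Fcer2a, the gene of CD23, separated all 4 groups. It had 312, 286 and 303 normalized counts in WT vehicle and 313, 349.7 and 322 in libraries labelled Pear1-/- vehicle, 2 groups that adjoined. It had 678, 682 and 671 in WT bleo and 207, 192 and 202 in libraries labelled Pear1-/- bleo. WT vehicle replicate 2 did not stand apart in this gene: it was the lowest of its group, away from libraries labelled Pear1-/- vehicle.

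Bank1, the adaptor, had 428, 585 and 377 normalized counts in WT vehicle and 593, 529.7 and 495 in libraries labelled Pear1-/- vehicle. It had 783, 853 and 857 in WT bleo and 376, 412 and 385 in libraries labelled Pear1-/- bleo. WT bleo was the highest group, and the lowest WT vehicle library lay within Pear1-/- bleo.

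Pax5, the lineage factor, was the least variable in vehicle. It had 152, 162 and 153 normalized counts in WT vehicle and 173, 169 and 168 in libraries labelled Pear1-/- vehicle. It had 208, 178 and 223 in WT bleo and 93.2, 103 and 86.7 in libraries labelled Pear1-/- bleo. As for Fcer2a, the 4 groups did not overlap, with Pear1-/- bleo at the bottom.

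**Figure D1:**
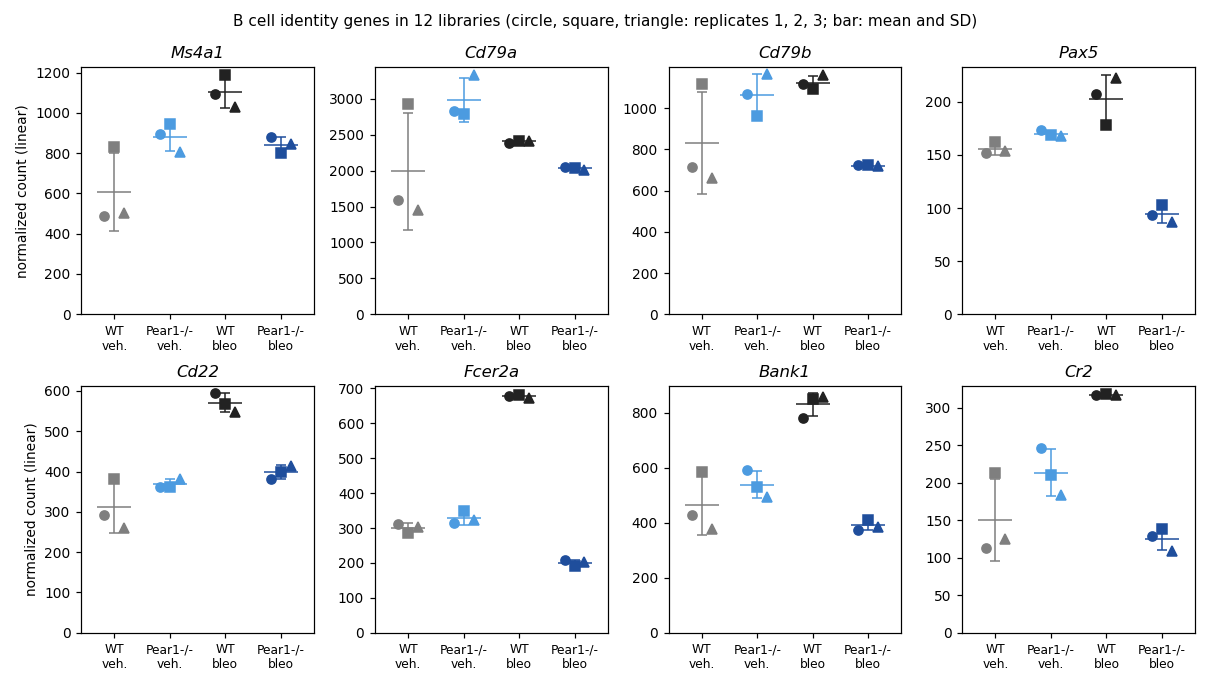
Normalized counts (linear axis from 0) of the 8 B cell identity genes in the 12 libraries, by labelled group, with circle, square and triangle for replicates 1, 2 and 3 and bars for the mean and SD of 3 libraries. WT bleo is the highest group for 7 genes by mean, and the square of WT vehicle lies above the other WT vehicle libraries for all genes but Fcer2a.

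In WT mice bleo raised most of the 8 genes. Fcer2a was higher by 1.18 on the log2 scale (SE 0.077, edgeR's adjusted p = 9.32e-11) and Cr2 by 1.08 (SE 0.18, adjusted p = 6.44e-05), and these 2 were called, meaning a fold change above 2 and an adjusted p under 0.05 over all genes tested. Cd22 (0.88, SE 0.10), Ms4a1 (0.87, SE 0.16), Bank1 (0.85, SE 0.12), Cd79b (0.44, SE 0.15) and Pax5 (0.39, SE 0.11) rose by less than 2-fold with adjusted p between 4.50e-07 and 0.0187. Cd79a had a log2 fold change of 0.29 (SE 0.23, adjusted p = 0.288). Thus 2 of 8 were called higher and 0 lower, where 10.5% of all genes tested were called higher and 23.3% lower. By adjusted p alone 7 of 8 were higher, where 31.4% of all genes were, and in 6 of 8 every WT bleo library was above every WT vehicle library, where 32% of all genes were. The median over the 8 was 0.86, beside -0.07 over all genes. Without WT vehicle replicate 2, 5 of 8 were called higher, all 8 had an adjusted p under 0.05, and the median was 1.12, with Ms4a1 at 1.23, Cd22 at 1.13 and Bank1 at 1.12. In that fit 11.3% of the 20405 genes tested were called higher and 33.7% lower, and 31.7% were higher by adjusted p alone. Without WT vehicle replicate 1, or without replicate 3, Fcer2a alone was called and Cr2 was 0.92 and 0.96. With WT vehicle replicate 2 as the only WT vehicle library, Fcer2a alone was called, at 1.26, and Cd79a turned to -0.27 (adjusted p = 0.00197), where 31.2% of all genes tested were called in either direction.

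In libraries labelled Pear1-/- the fold changes of the same treatment lay between -0.84 and 0.11. None of the 8 was called in edgeR's test, 0 by DESeq2 and 0 by limma, where 8.37% of all genes were called higher and 19.3% lower, while 6 of 8 had an unadjusted p under 0.05. By adjusted p alone 5 of 8 were lower, where 33.1% of all genes were. These were Pax5 (-0.84, SE 0.12, adjusted p = 4.76e-06), Cr2 (-0.77, SE 0.18, adjusted p = 0.00184), Fcer2a (-0.71, SE 0.081, adjusted p = 4.01e-07), Cd79b (-0.56, SE 0.15, adjusted p = 0.00589) and Bank1 (-0.46, SE 0.12, adjusted p = 0.00282). Cd79a was -0.55 (SE 0.22, adjusted p = 0.0586), Ms4a1 -0.06 (SE 0.16, adjusted p = 0.755) and Cd22 0.11 (SE 0.10, adjusted p = 0.344). WT vehicle replicate 2 is in neither of these groups, but it enters the shared estimate of the spread, the scaling and the filter. Without it 0 were called and 6 of 8 were lower by adjusted p alone, where 40.2% of all genes were. In 6 of 8 every bleo library was below every vehicle library, where 37.8% of all genes were, and the median over the 8 was -0.55 beside -0.05 over all genes.

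Between the bleo groups all 8 genes had lower means in libraries labelled Pear1-/-. Fcer2a differed most, by -1.77 on the log2 scale (SE 0.078, edgeR's adjusted p = 1.83e-12), followed by Cr2 (-1.35, SE 0.18, adjusted p = 1.30e-05), Pax5 (-1.11, SE 0.11, adjusted p = 1.86e-07) and Bank1 (-1.10, SE 0.12, adjusted p = 6.24e-07). These 4 of 8 were called lower and 0 higher, where 8.8% of all genes tested were called lower and 6.22% higher. Cd79b (-0.65, SE 0.15, adjusted p = 0.00318) and Cd22 (-0.53, SE 0.10, adjusted p = 0.000223) were lower by less than 2-fold. Ms4a1 (-0.40, SE 0.16, adjusted p = 0.0605) and Cd79a (-0.26, SE 0.22, adjusted p = 0.387) did not pass, so 6 of 8 were lower by adjusted p alone, where 24% of all genes were. Yet in all 8 genes each library labelled Pear1-/- bleo lay below each WT bleo library, as in 31.6% of all genes. The WT vehicle libraries are in neither of these groups, but they enter the shared estimate of the spread, the scaling and the filter. Without WT vehicle replicate 2 the same 4 were called, Ms4a1 was -0.41 (adjusted p = 7.09e-08) and Cd79a -0.27 (adjusted p = 4.40e-05), where 9.41% of all genes were called lower and 25.9% were lower by adjusted p alone. The median over the 8 was -0.88, and -0.89 without that library, beside -0.01 over all genes.

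Between the vehicle groups no gene of the 8 was called in edgeR's test, 0 by DESeq2 and 0 by limma, where 0.0689% of all genes were called higher in libraries labelled Pear1-/- and 3.25% lower. The log2 differences were all above 0, from 0.12 for Pax5 and Fcer2a to 0.58 for Cd79a (SE 0.23, adjusted p = 0.121), and 5 of 8 had an unadjusted p under 0.05. By adjusted p alone 0 of 8 were higher, where 1.95% of all genes were. Only Pax5 and Fcer2a had no overlap between the groups, 2 of 8, where 8.28% of all genes had none in this direction. This comparison turned on 1 library. Without WT vehicle replicate 2, 6 of 8 genes were higher by adjusted p alone and Cd79a was called, at 1.04 (adjusted p = 3.34e-20), with Cr2 at 0.92 and Ms4a1 at 0.90. The gain ran through the whole table, since 25.5% of all genes were then higher by adjusted p alone, 2.86% were called higher and 21.3% lower. With that library alone as WT vehicle, the 8 differences lay between -0.12 and 0.20, and 0 of 18175 genes tested were called.

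Whether bleo acted differently in the 2 genotypes was tested by an interaction term, in which a negative value means a smaller rise or a larger fall in libraries labelled Pear1-/-. It was -1.89 for Fcer2a (SE 0.11, edgeR's adjusted p = 4.69e-10), -1.84 for Cr2 (SE 0.25, adjusted p = 4.21e-05), -1.31 for Bank1 (SE 0.17, adjusted p = 1.03e-05), -1.23 for Pax5 (SE 0.16, adjusted p = 7.97e-06) and -1.0 for Cd79b (SE 0.21, adjusted p = 0.00261). So 5 of 8 were called lower and 0 higher, where 6.98% of all genes were called lower and 8.53% higher. By adjusted p alone 7 of 8 were lower, where 19.3% of all genes were, with Ms4a1 at -0.93 (SE 0.23, adjusted p = 0.00786) and Cd22 at -0.77 (SE 0.15, adjusted p = 0.000401). Cd79a was -0.84 (SE 0.32, adjusted p = 0.0689). Ptprc had an interaction of the same sign, -1.40 (SE 0.12, adjusted p = 3.80e-08, and -1.60 without WT vehicle replicate 2). Of the marker lists of other cells described below, 7 of 12 macrophage and monocyte, 3 of 11 T cell and 3 of 6 epithelial markers were also called lower, or 8, 7 and 4 without that library. Of 8 dendritic cell markers 2 were called lower, with and without it. Other lists had higher calls: 3 of 11 fibroblast markers (1 lower), 2 of 10 plasma cell (1 lower) and 2 of 5 erythroid (0 lower). Without that library these were 3 higher and 2 lower, 2 and 1, and 1 and 1. The part of these lists in the result was not tested. Leaving out WT vehicle replicate 2, all 8 B cell identity genes were called lower, between -2.28 and -1.03, where 9.81% of all genes were called lower and 12.1% higher. With that library as the only WT vehicle library 3 were called, Fcer2a (-1.95), Cr2 (-1.34) and Pax5 (-1.16), where 12.7% of all genes were called in either direction. Cd79b lay at the fold limit and fell short of it with DESeq2 or other size factors (-0.99) and without Pear1-/- vehicle replicate 3 (-0.98) or WT vehicle replicate 1 (-0.91) or 3 (-0.86).

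**Figure D2:**
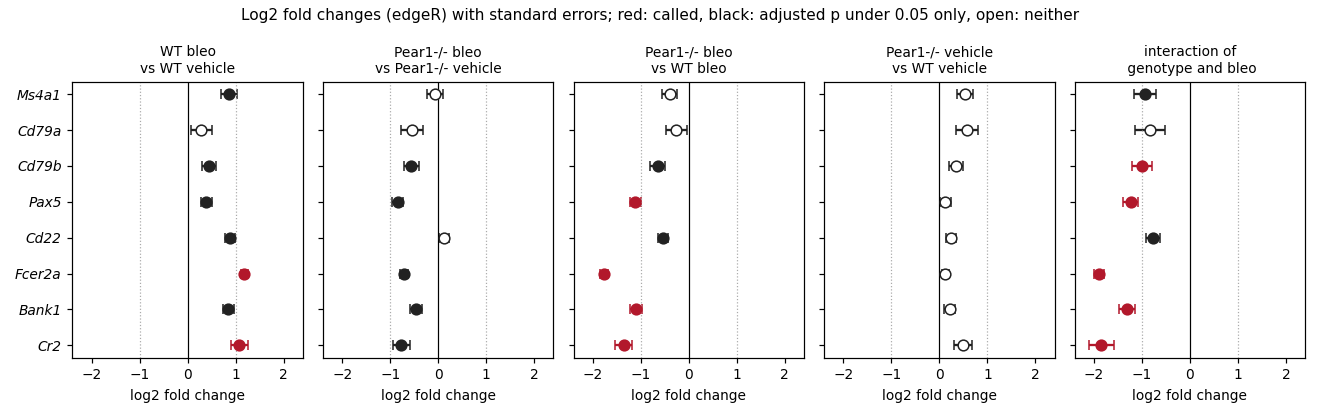
Log2 fold changes of the 8 genes in edgeR's fit, with standard errors, for the 4 comparisons of labelled groups and the interaction. Dotted lines mark a fold change of 2, red points were called, black points had an adjusted p under 0.05 only and open points neither, and red points stand to the right for Fcer2a and Cr2 in WT bleo vs WT vehicle and to the left for 4 genes between the bleo groups.

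The fold changes differed among the 8 genes, and the share of each in the sum of the 8 shows how. The sum was 4084, 6509 and 3836 normalized counts in WT vehicle, between 6319 and 6851 in Pear1-/- vehicle, between 7174 and 7297 in WT bleo and between 4765 and 4839 in libraries labelled Pear1-/- bleo. Fcer2a made up 9.36% ± 0.078 (SD, n = 3) of the sum in WT bleo and 4.17% ± 0.16 in libraries labelled Pear1-/- bleo. Cr2 went from 4.39% ± 0.029 to 2.61% ± 0.30, Bank1 from 11.5% ± 0.50 to 8.14% ± 0.40 and Pax5 from 2.81% ± 0.33 to 1.96% ± 0.17, in each case without overlap. Cd79a made up 33.3% ± 0.19 in WT bleo and 42.3% ± 0.17 in libraries labelled Pear1-/- bleo, and Ms4a1 15.2% ± 1.02 and 17.5% ± 0.79, again without overlap. The shares of Cd22 (7.89% ± 0.36 and 8.29% ± 0.42) and Cd79b (15.5% ± 0.52 and 15.0% ± 0.088) overlapped between these groups. No test was run on these shares.

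**Figure D3:**
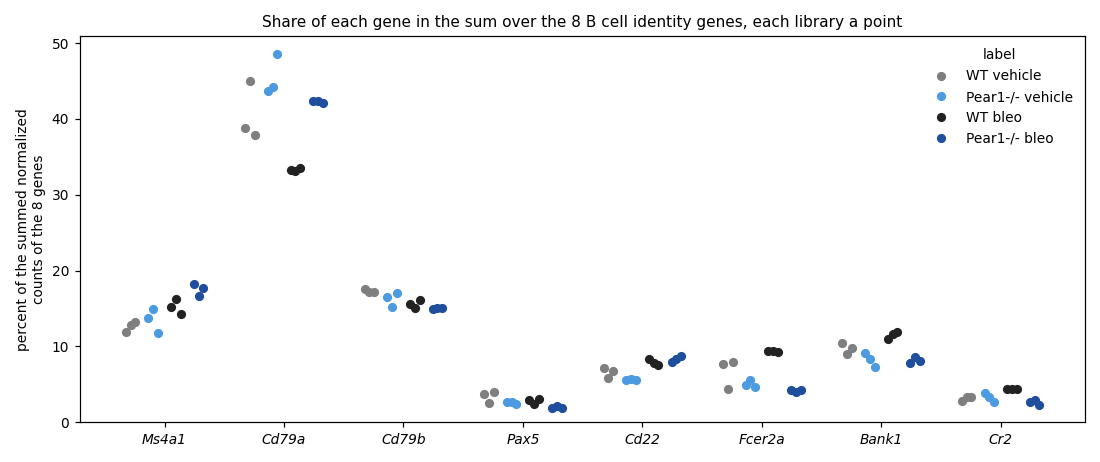
Percent of the summed normalized counts of the 8 genes that each gene takes, with each library as a point, by labelled group. Fcer2a, Bank1, Cr2 and Pax5 take less in Pear1-/- bleo than in WT bleo, and Cd79a and Ms4a1 take more.

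The genes also parted when set against Ptprc. Per 100 normalized counts of Ptprc, which was called higher in WT bleo than in WT vehicle (1.22, SE 0.084, adjusted p = 2.21e-10, and 1.41 without WT vehicle replicate 2) and lower in libraries labelled Pear1-/- bleo than in those of WT bleo (-1.19, SE 0.083, adjusted p = 9.33e-10), the 8 genes together had between 126 and 169 in WT vehicle, between 161 and 195 in Pear1-/- vehicle, between 94.4 and 95.7 in WT bleo and between 139.9 and 148 in Pear1-/- bleo. Fcer2a had 8.89 ± 0.057 (SD, n = 3) in WT bleo and 5.95 ± 0.045 in libraries labelled Pear1-/- bleo. Ms4a1 had between 13.6 and 15.4 in the former and between 24.7 and 25.5 in the latter, and Cd79a 31.6 ± 0.41 and 60.4 ± 2.13, so these 2 were higher against Ptprc in libraries labelled Pear1-/- bleo, as were Cd79b and Cd22. For Pax5 (2.67 ± 0.33 and 2.81 ± 0.33), Bank1 (10.9 ± 0.53 and 11.6 ± 0.95) and Cr2 (4.17 ± 0.049 and 3.73 ± 0.54) the bleo groups overlapped. In WT all 8 genes had a lower mean against Ptprc with bleo than with vehicle, where Cd79a had 58.8 ± 15.1. The WT groups overlapped for Fcer2a (9.25 ± 1.59 with vehicle) and Cr2 (4.46 ± 0.94 with vehicle). The rise of these genes with bleo in WT was thus not seen on this scale.

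On log2 CPM (with a prior count of 2) over the 12 libraries, Bank1 and Cr2 were the most alike pair of the 8 (Pearson's r = 0.97), followed by Fcer2a with Bank1 (0.91), and Ms4a1 with Pax5 was the least alike (0.25). Ms4a1 was most like Cd22 (0.89) and Cd79a most like Cd79b (0.85). Against the mean of the other 7 genes, Cr2 had the highest r (0.98) and Cd79a the lowest (0.57). The 12 libraries fall into 4 groups, so these values are descriptions of group differences and carry no test. Among all other genes tested, the 10 with a pattern most like the mean of the 8 were Dock2, Lars2, Syk, Gbp8, Btg1, Zfp36, Fam46c, Dock11, Golga4 and Traf1, with r between 0.99 and 0.98. Syk, the kinase that docks on CD79A and CD79B, differed by -0.95 between the bleo groups, and Gbp8, a guanylate-binding protein gene, by -2.34.

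Signalling genes downstream of the antigen receptor were measured beside the 8 genes, and no test compares the lists. Of 18 genes of the pathway and its co-receptor, 9 were called higher and 0 lower in WT bleo than in WT vehicle, with a median log2 fold change of 0.95, and 5 were called lower and 0 higher in libraries labelled Pear1-/- bleo than in those of WT bleo, with a median of -0.79. The interaction was called lower in 10 of the 18. With bleo in libraries labelled Pear1-/-, 1 was called higher and 0 lower, with a median of -0.04 where that of the 8 genes was -0.55. These counts were 11 higher, 5 lower and 13 lower without WT vehicle replicate 2. Between the bleo groups Cd81, a tetraspanin gene, was -0.55 (SE 0.060), Syk -0.95 (SE 0.13) and the kinase gene Lyn -1.02 (SE 0.078), while Malt1, a scaffold of NF-κB signalling, was -0.39 (SE 0.066), with adjusted p between 3.47e-09 and 7.62e-05. Of 8 inhibitors of the receptor, 7 were called higher in WT bleo and 4 lower in libraries labelled Pear1-/- bleo than in those of WT bleo, among them the lipid phosphatase gene Inpp5d (-1.02, SE 0.078) and Cd72 (-1.81, SE 0.073), whereas the Fc receptor gene Fcgr2b (-0.95, SE 0.067) and the phosphatase gene Ptpn6 (-0.96, SE 0.17) were lower by less than 2-fold. With bleo in libraries labelled Pear1-/-, 3 inhibitors were called higher and 1 lower, with a median of 0.63. The counts of inhibitors without WT vehicle replicate 2 were again 7 in WT and 4 between the bleo groups. Many of these genes are also made by myeloid cells, whose markers are given below.

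Of 11 transcription factors of the lineage other than Pax5, 1 was called lower and 0 higher, a share near the 8.8% over all genes, in libraries labelled Pear1-/- bleo than in those of WT bleo (median -0.39), and 2 were called higher in WT bleo than in WT vehicle, or 4 without WT vehicle replicate 2. Irf8, which is also a factor of dendritic cells and monocytes, was -0.80 (SE 0.065) between the bleo groups, Ikzf1, a factor of all lymphocytes, -0.67 (SE 0.071), and Tcf3, which acts early in the B lineage, 0.42 (SE 0.077). Of 14 ligands and receptors that attract B cells or keep them alive, 13 were tested, and of these 1 was called higher and 0 lower between the bleo groups. The called gene, at 1.44, is also among the plasma cell markers below. Among those not called, the stromal chemokine gene Cxcl12 was 0.73 (SE 0.19, edgeR's adjusted p = 0.00948) and the chemokine receptor gene Ccr7 -0.42 (SE 0.082, adjusted p = 0.000352). Tnfsf13b, the gene of the B cell survival factor BAFF, was -0.63 (SE 0.071, adjusted p = 5.99e-07) and was not called either.

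Of 17 other B cell markers, some of which the lists above also hold (among them Blk, Cd72, Spib, Pou2af1, Cxcr5 and Tnfrsf13c), in libraries labelled Pear1-/- bleo 3 were called lower and 0 higher than in WT bleo (median -0.73), and the interaction was called lower in 8. Between the bleo groups the 17 lay between -1.81 and 1.09. H2-Ob, a chaperone of antigen presentation in B cells, was -0.74 (SE 0.090) there and Cd72 -1.81, as above. Pou2af1 went the other way, at 0.72 (SE 0.13, edgeR's adjusted p = 0.000354), and was not called. In WT bleo 3 of the 17 were called higher and 1 lower than in WT vehicle, with a median of 0.41, and without WT vehicle replicate 2 these were 6 and 0, with a median of 0.69, and the interaction was called lower in 12. For Ighd, which naive B cells make, WT went from 667 ± 106 normalized counts with vehicle to 1508 ± 32.1 with bleo (SD, n = 3), and libraries labelled Pear1-/- from 783 ± 56.1 to 716 ± 16.3. Ighm was called higher by bleo in both genotypes (1.91 and 1.06) and Igkc lower in both (-2.60 and -1.03), and without WT vehicle replicate 2 the values in WT were 1.74 and -2.18. Between the bleo groups Ighm was called lower (-1.57, SE 0.20) and Igkc higher (2.17, SE 0.22), with interactions of -0.85 (SE 0.27, adjusted p = 0.0369) and 1.58 (SE 0.30, adjusted p = 0.00355).

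Most plasma cell markers were called the opposite way between the bleo groups. Of 10 such markers 6 were called higher and 1 lower in libraries labelled Pear1-/- bleo than in those of WT bleo (median 1.38), and 5 were called lower in WT bleo than in WT vehicle, or 4 lower and 1 higher without WT vehicle replicate 2. Jchain, which joins IgA and IgM units, differed by 2.96 (SE 0.21, adjusted p = 5.18e-06) between the bleo groups, and Xbp1, a factor of secretory cells, by 0.71 (SE 0.11), while Tent5c (listed in the tables as Fam46c) was called lower (-1.0, SE 0.16). Of 6 germinal centre genes 2 were called higher and 0 lower, with S1pr2 at 0.38 (SE 0.081) and Bcl6 at -0.80 (SE 0.097). Of 5 genes of immature B cells only Rag1 passed the filter on low counts and was called lower with bleo in each genotype (4 passed, and were called lower in WT, without WT vehicle replicate 2), and the 5 summed to between 2.02 and 6.02 normalized counts in the bleo libraries.

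Markers of other cells moved with the same contrasts, and their part in the results on the 8 genes was not tested. The summed level of 12 macrophage and monocyte markers was between 17788 and 23693 normalized counts in WT vehicle, between 23150.3 and 24600 in Pear1-/- vehicle, between 113155 and 114960 in WT bleo and between 55211 and 56966 in Pear1-/- bleo. Of these, 10 were called higher and 1 lower in WT bleo than in WT vehicle (10 and 0 without WT vehicle replicate 2), and 7 lower between the bleo groups, Lyz2 among them (-1.14, SE 0.071). Of 11 T cell markers, 4 were called lower with bleo in WT (2 without WT vehicle replicate 2) and 10 in libraries labelled Pear1-/-, and 0 were called between the bleo groups. Of 8 dendritic cell markers 2 were called lower between the bleo groups and 0 higher, of 6 epithelial markers 2 lower and 0 higher, and of 5 erythroid markers 2 higher and 0 lower. None of 6 neutrophil, 6 endothelial or 5 follicular dendritic cell markers tested was called there, while 5 of the neutrophil markers were called lower with bleo in each genotype (in WT 5 lower and 1 higher without WT vehicle replicate 2). The summed level of 6 follicular dendritic cell markers, which do not include Cr2, went with bleo in WT from between 6258 and 8027 with vehicle to between 11610.4 and 11777 with bleo, and was between 7704 and 8592 in Pear1-/- vehicle and between 9323 and 9460 in Pear1-/- bleo. Of the 5 tested, 2 were called higher and 0 lower with bleo in WT (2 and 0 also without WT vehicle replicate 2), namely, with all libraries, Fcgr2b (3.28, SE 0.074), also an inhibitor above and made by B and myeloid cells, and the chemokine gene Cxcl13 (1.35, SE 0.16). The higher sum was that of Fcgr2b, whose mean went from 731 to 7059 normalized counts in WT, while the mean of Mfge8 went from 4059 to 2810 and that of Prnp from 1168 to 598 (-0.52, SE 0.076, and -0.95, SE 0.080). Only Fcgr2b was called higher with bleo in libraries labelled Pear1-/- (2.32, SE 0.071), and Madcam1, the marker that was not tested, had between 0 and 10.9 normalized counts in WT vehicle. The summed level of 6 neutrophil markers was between 4331 and 15110 in WT vehicle and between 14125 and 17884 in Pear1-/- vehicle. Of these 6, 0 were called between the vehicle groups, and all 6 were called higher in libraries labelled Pear1-/- vehicle without WT vehicle replicate 2. For the sorted cells themselves, 11 fibroblast markers summed to between 155054 and 174280 in WT vehicle, between 172764 and 179025 in Pear1-/- vehicle, between 113122 and 114222 in WT bleo and between 289987 and 299550 in Pear1-/- bleo. Most of that sum is 3 collagen genes, Col1a1, Col1a2 and Col3a1, with means of 142173, 63672 and 72242 normalized counts in Pear1-/- bleo. Of the 11 markers these 3 were called higher and 1, Col14a1 (-1.08, SE 0.081), lower between the bleo groups, with a median of 0.13, while Pdgfra was 0.80 (SE 0.067), Inmt 0.12 (SE 0.077) and Tcf21, a factor of lipofibroblasts, -0.0032 (SE 0.095). Col14a1, Inmt and Tcf21 were chosen for mention after their values were seen, as were Cxcl13, Mfge8 and Prnp. In WT bleo 0 of the 11 were called higher and 7 lower than in WT vehicle, or 0 and 6 without WT vehicle replicate 2. In libraries labelled Pear1-/-, 2 were called higher with bleo and 7 lower.

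**Figure D4:**
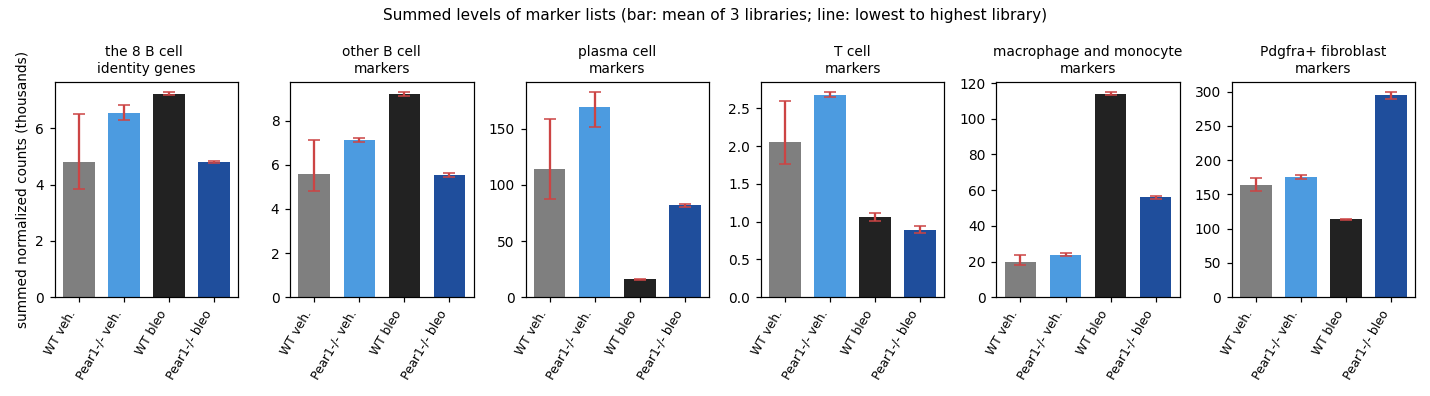
Summed normalized counts (linear axes from 0, in units given on the axis) of the 8 B cell identity genes and of 5 marker lists by labelled group, with bars for the mean of 3 libraries and lines from the lowest to the highest library. The 8 genes and the other B cell markers are highest in WT bleo, as are macrophage and monocyte markers, while plasma cell markers are lowest there.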

How the data were processed

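Pdgfra+ lung cells were sorted, full-length cDNA was made with a SMART-Seq kit, and 12 libraries were sequenced in pairs. The authors aligned reads to GRCm38 (mm10) with HISAT2, and the submitters' notes name FastQC. Alignments were then assigned to an mm10 reference transcriptome, and neither the program that did so nor the annotation release is given in the sources used here. The authors deposited raw read counts per gene and, as linear signal, normalized counts, which were the counts divided by a DESeq2 size factor (largest relative deviation 5.94e-10). All 12 columns were matched to labels, and groups were taken from the labels.

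Log2 fold changes came from edgeR 4.0.16 (R 4.3.3) on the counts, with TMM, filterByExpr by group, 1 mean per group over all 12 libraries, robust empirical Bayes, the two-sided quasi-likelihood test and Benjamini-Hochberg adjustment over 17418 genes across the table. The standard error was the log2 fold change divided by the root of F. A gene was called at a fold change above 2 and an adjusted p under 0.05. Whether empirical Bayes was robust was not laid down at first: the fit was run without it, then with it, and both are reported. DESeq2 1.42.0, limma 3.58.1 (pseudocount 1), size factors, no filter, a replicate block, 2-group fits and leaving out each library were alternatives. The scripts were tested on simulated data. Reads are not independent molecules, and p-values measure the spread between libraries, which may be technical. All 8 genes are named, and from fixed lists the 2 to 4 with the largest mean CPM, beside the 10 genes most alike and 3 immunoglobulin genes. Further genes were named after their values were seen: Col14a1, Inmt, Tcf21, Cxcl13, Madcam1, Mfge8, Prnp and Rag1. A gene that this rule names is not reported here. The genes and lists were chosen with earlier results of these data known. Windows were read from RefSeq (GRCm38.p6). Protein sequences were not used here.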

Additional observations from a re-analysis of the deposited data

Results flagged for a closer look

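The response to bleo differed between the genotypes as labelled in 5 of the 8 genes, by the interaction of genotype and bleo in edgeR's fit, where 6.98% of all genes were called lower and 8.53% higher. Ptprc had an interaction of -1.40 in the same fit, and 7 of 12 macrophage and monocyte markers were called lower, and their part in the result was not tested. The interaction was -1.89 on the log2 scale for Fcer2a, where the libraries labelled Pear1-/- fell by 0.71 and WT rose by 1.18, and -1.84 for Cr2, with -0.77 and 1.08. It was -1.31 for Bank1 (-0.46 and 0.85), -1.23 for Pax5 (-0.84 and 0.39) and -1.0 for Cd79b (-0.56 and 0.44). With the library labelled WT vehicle replicate 2 as the only WT vehicle library, the interaction was called for Fcer2a, Cr2 and Pax5, and was -0.97 for Bank1 and -0.56 for Cd79b. Without that library all 8 genes were called, where 9.81% of all genes were called lower and 12.1% higher. DESeq2 called 4, and Cd79b, at -0.99 there, was not among them.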

How the results depend on the processing

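The number of the 8 genes called was 2 for WT bleo vs WT vehicle, 0 for Pear1-/- bleo vs Pear1-/- vehicle, 4 for Pear1-/- bleo vs WT bleo, 0 for Pear1-/- vehicle vs WT vehicle and 5 for the interaction. Of all genes tested 33.8%, 27.7%, 15.0%, 3.32% and 15.5% were called in either direction. Leaving out each library in turn, the number of the 8 genes was between 1 and 5, 0 and 0, 4 and 4, 0 and 1, and 4 and 8, and in each comparison that moved, the library labelled WT vehicle replicate 2 gave the highest count, while leaving out WT vehicle replicate 1 or 3 gave the lowest for WT bleo vs WT vehicle (1) and the interaction (4). Without WT vehicle replicate 2, 45.0%, 32.7%, 16.0%, 24.2% and 21.9% of all genes tested were called in either direction. Such shares are not given here for the other libraries left out. By adjusted p alone the counts were 7, 5, 6, 0 and 7. With that library as the only WT vehicle library, an alternative chosen after seeing the data in which the lone library is taken to vary like the other groups, they were 1, 0, 4, 0 and 3. There Cd79a turned to -0.27 in WT bleo vs WT vehicle, and Cd79b (-0.073), Cd22 (-0.054) and Bank1 (-0.12) turned in the vehicle comparison. Robust empirical Bayes was adopted after a first fit without it had been run. Without it, all 5 counts of genes called were the same, where 33.9%, 27.8%, 15.0%, 2.36% and 15.7% of all genes tested were called in either direction. By adjusted p alone the counts without it were 7, 6, 7, 0 and 8, and shares over all genes are not given here. Cd79a then passed in Pear1-/- bleo vs Pear1-/- vehicle (0.0158) and in the interaction (0.019), and Ms4a1 between the bleo groups (0.0364). The counts of the other gene lists without WT vehicle replicate 2 were also chosen after seeing the data. Of 792 settings for single genes 767 kept the call and direction, 10 lost the call, 11 gained it and 4 turned.

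The replicate numbers did not pair the libraries: over 18 same-numbered pairs the correlation of deviations from the group means was between -0.16 and 0.0997. In 4 of the 18 pairs the library was most like the one of its own number in the other group. The fit with the replicate block called 2, 0, 4, 0 and 5 of the 8 genes. Size factors in place of TMM moved the median of all genes by under 0.1 on the log2 scale. Without the filter on low counts, the median over 40760 genes was -1.48 in WT bleo vs WT vehicle. In that fit 3 of the 8 were called, and the share of all genes called is not given here. Depth did not limit the 8 genes, the lowest count being 91.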
